A study of Mus musculus with 6 samples.

Results

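A set of 10 genes of the modulated state of smooth muscle was followed, library by library, in aortic samples of miR-21 knockout and WT mice. The genes were *Ly6a*, *S100a4*, *Lgals3*, *Vim*, *Cd44*, *Fn1*, *Thbs1*, *Mgp*, *Prg4* and *Vcan*, chosen by symbol as known markers of that state, and all 10 were found among the 22956 genes of the count table. That choice, like that of all lists below, was made with earlier results of these data known. Shares of a list set beside all genes therefore only describe it. RNA of 6 samples labelled as aortic smooth muscle cells had been sequenced. The 3 knockout samples came from C57B6 mice of the genotype miR-21fl/flmTmG/Myh11ERT2, which carry a floxed miR-21 gene, and the 3 WT samples from C57B6 mice of the genotype WT/mTmG/ Myh11ERT2. Animals of both groups were 30 weeks old and had eaten a western diet, a high-fat feed, for 20 weeks. Both groups also carried the Myh11ERT2 driver, an inducible Cre made from the *Myh11* promoter and so active in smooth muscle, and mTmG, a membrane reporter that turns from red to green where Cre has acted. The labels give no induction schedule, no sort for reporter colour and no statement that the replicates are separate animals, so the p-values below measure only the spread between these 6 samples. The loss of miR-21 itself was not checked in these counts.

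Smooth muscle cells of a healthy artery hold large amounts of contractile proteins and divide little. In atherosclerosis many of them lose these proteins, migrate and make matrix, a change called phenotypic modulation, and lineage tracing in mice has shown that such cells make up much of a lesion and its fibrous cap. The markers of this state are of 3 kinds. Some are cell-surface proteins (Ly6a, also called Sca1, and the hyaluronan receptor Cd44). Others lie within the cell (the calcium-binding protein S100a4, the lectin galectin-3 encoded by *Lgals3*, and the intermediate filament vimentin). The rest are secreted into the matrix (fibronectin, thrombospondin 1, matrix Gla protein, lubricin encoded by *Prg4*, and the proteoglycan versican). miR-21 is a short RNA that lowers messages whose 3′ untranslated region (UTR) pairs with its seed, and it is known for its abundance in injured and diseased arteries.

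The seed of miR-21 is shown because it tells which messages the microRNA could pair with directly. The mature sequence (RefSeq, GRCm38.p6, chr11:86584120-86584141, minus strand) is given with the seed, bases 2 to 8, in capitals.
mmu-miR-21a-5p: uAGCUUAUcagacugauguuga
Its match in a message is ATAAGCT. Of the 10 markers, 0 held this match in the 3′ UTR of their GENCODE M21 principal transcript, while 961 of 13085 tested genes with a searched 3′ UTR did (7.34%). A shorter match of 6 bases, TAAGCT, occurred in 25.3% of those genes. It was present in *Cd44*, at 2 places, and in *Lgals3*, at 1 place. The 3 sites are printed in the direction of the message with the 6 matching bases in capitals (GRCm38, the assembly also named mm10), to show what lies around them. The first *Cd44* site is followed by an A, a feature of stronger sites. The 3′ UTRs searched ran from 144 bases in *S100a4* to 2995 in *Cd44*, and a longer one has more places for a match. With 10 genes of such unlike lengths, these counts do not tell whether the markers hold fewer matches than other genes. A match is a description and not evidence of binding.
Cd44 at chr2:102813555-102813560, minus strand: tttatctttagTAAGCTatttatctttg
Cd44 at chr2:102813290-102813295, minus strand: tatggtcctccTAAGCTcatgctagagc
Lgals3 at chr14:47386002-47386007, plus strand: gtggttgtaagTAAGCTgtgtgaccagg

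Library totals ranged from 37787465 to 72277179 estimated counts in the knockout and from 37996254 to 154384307 in WT. Levels are given as CPM, counts scaled to the same library total for every sample after TMM scaling, which corrects for differences in library make-up. The label of smooth muscle fitted its defining markers: *Acta2* lay at 12063 to 15772 CPM in the knockout and at 9861 to 15575 CPM in WT, and *Myh11* at 7110 to 9458 CPM in the knockout and at 5427 to 8244 CPM in WT. Markers of other cells ranged from near 0 to well detected. The endothelial cadherin gene *Cdh5* reached at most 0.536 CPM in a knockout library and 0.580 CPM in a WT library, while *Pecam1*, also endothelial, was at 52.9 to 63.6 CPM in the knockout and 58.2 to 60.7 CPM in WT. The macrophage marker *Adgre1* reached at most 0.268 CPM in the knockout and 0.132 CPM in WT, while *Lyz2* reached 12.58 CPM in the knockout and 12.6 CPM in WT. The T cell marker *Cd3e* reached 0.0458 CPM in the knockout and 0.264 CPM in WT. The fibroblast receptor gene *Pdgfra* was well detected, at 25.6 to 75.3 CPM in the knockout and 34.6 to 81.0 CPM in WT.

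None of the 10 markers differed between knockout and WT beyond the spread of the libraries, and that spread was wide for most of them. All 10 passed the filter on low counts and were tested among 16654 genes with edgeR's quasi-likelihood test. At a Benjamini-Hochberg adjusted p under 0.05, 0 of 10 were called higher and 0 lower, as were 0 (0%) of all genes in each direction. At an unadjusted p under 0.05, 0 markers were higher, against 658 of all genes (3.95%), and 1, *S100a4*, was lower, against 335 of all genes (2.01%). DESeq2's Wald test and limma-voom also called 0 markers, while DESeq2 called 63 genes higher and 12 lower over the whole table. Without knockout 1 the markers lower at an unadjusted p under 0.05 were 4. Of 17158 genes tested 769 were then higher and 956 lower. Without WT 2 they were 2, and of 17242 genes tested 798 were then higher and 581 lower. With limma-voom the markers lower were also 2, while of 16654 genes tested 1135 were higher and 801 lower. Markers lower at this threshold were 0 without any 1 of the other 4 libraries. They were also 0 with DESeq2's size factors and with a filter of 1 CPM in 3 samples. The fitted log2 fold change, knockout over WT, was below 0 in 7 of 10 markers, against 50.6% of all genes, and its median was -0.24, against -0.0022 over all genes. The count and the median turned on single libraries. Without WT 1 the count was 5 and the median 0.0069, and without knockout 1 they were 9 and -0.54. The median was -0.074 without knockout 2, -0.13 without knockout 3 and -0.42 without WT 2. The knockout libraries lay entirely below the WT libraries for 0 of 10 markers (5.6% of all genes) and entirely above them for 0 (6.48% of all genes).

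**Figure D1:**
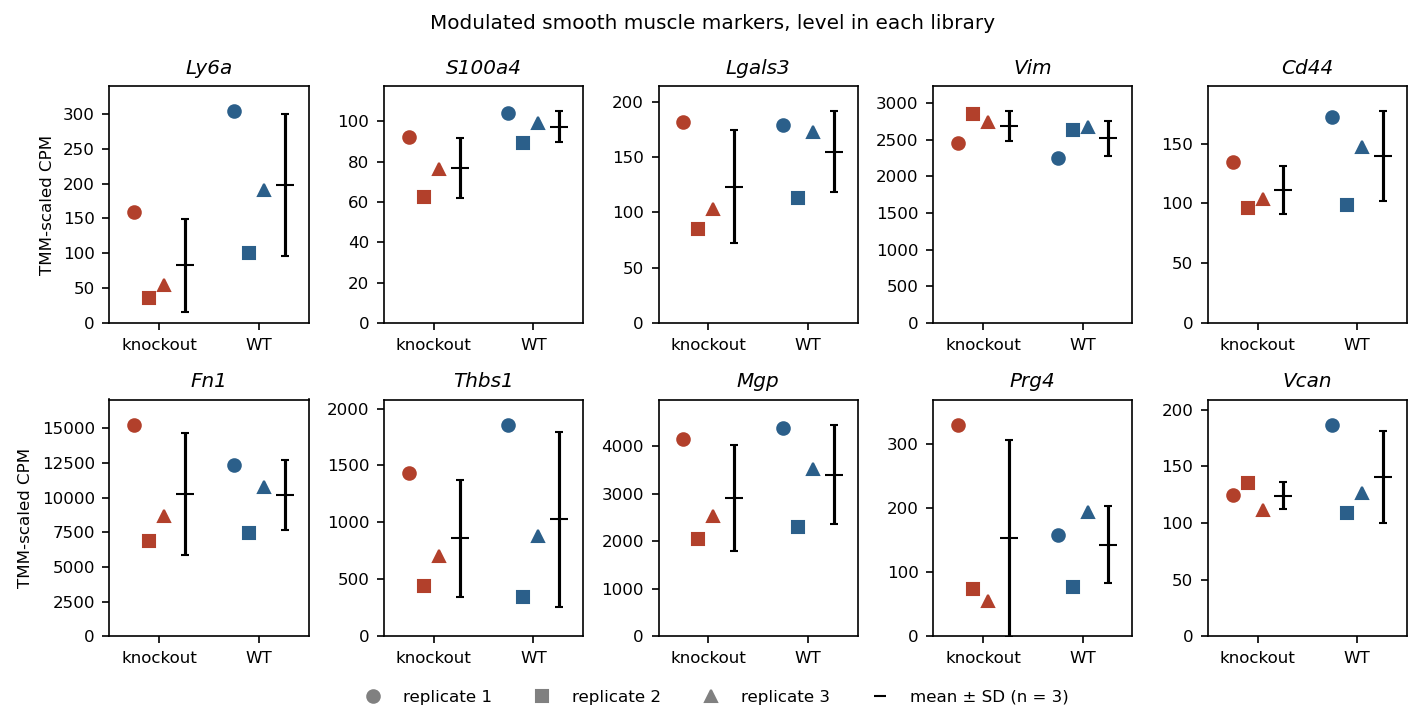
Level of each of the 10 markers in TMM-scaled CPM (linear axis from 0), with knockout libraries on the left in red and WT libraries on the right in blue; symbols mark the replicate number, and the bar beside each group is its mean ± SD (n = 3). The groups overlap in all 10 panels, and for 8 markers knockout 1 stands highest of the knockout libraries.

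At the cell surface, *Ly6a* (chr15:74994877-74998031, minus strand, mm10) had the largest fitted difference of the 10. Ly6a is a GPI-anchored protein of stem and progenitor cells, and lineage-traced smooth muscle cells can express it in mouse lesions. It was at 159, 35.7 and 53.9 CPM in knockout 1, 2 and 3, against 303, 100.2 and 190.1 CPM in WT 1, 2 and 3. Knockout 2 and 3 lay below every WT library, while knockout 1 lay between WT 2 and WT 3. The means were 83.0 ± 66.7 CPM in the knockout and 197.9 ± 101.9 CPM in WT (SD, n = 3 each). The log2 fold change was -1.26 ± 0.65 (SE), with a 95% interval from -2.85 to 0.33 and an edgeR adjusted p of 0.859. It was -2.15 without knockout 1 and -0.81 without WT 1, and it was below 0 in every alternative run.

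*Cd44* (chr2:102811141-102901665, minus strand) encodes the main receptor of hyaluronan, which also binds osteopontin. It was at 134, 96.4 and 103.6 CPM in knockout 1, 2 and 3 and at 172, 98.4 and 147 CPM in WT 1, 2 and 3. WT 2 lay among the knockout libraries, so the groups overlapped. Its log2 fold change was -0.32 ± 0.22 (SE; 95% interval -0.86 to 0.21; edgeR adjusted p = 0.866). The value was -0.14 without WT 1 and -0.52 without WT 2.

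Within the cell, *S100a4* (chr3:90603771-90606045, plus strand), a calcium-binding protein gene linked to motility, had the narrowest spread among the markers below 0. It was at 92.1, 62.5 and 76.3 CPM in knockout 1, 2 and 3, against 103.9, 89.03 and 98.9 CPM in WT 1, 2 and 3. All WT libraries lay above knockout 2 and 3, and only knockout 1 entered the WT range. Its fitted difference was -0.34 ± 0.14 on the log2 scale (SE), and the 95% interval ended just below 0, from -0.68 to -0.00093. The unadjusted edgeR p was 0.0495 and the adjusted p 0.833. An exact permutation test of log2(CPM + 0.5) gave p = 0.2 (two-sided), where 3 against 3 allows no less than 0.1. The sign held in every alternative run, with values from -0.49 without knockout 1 to -0.21 without knockout 2 when single libraries were left out.

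*Lgals3* (chr14:47367751-47386160, plus strand) encodes galectin-3, a lectin that binds galactose-bearing glycans and marks both macrophages and a transitional state of lesion smooth muscle. It was at 182, 84.98 and 103.4 CPM in knockout 1, 2 and 3 and at 179, 113 and 173 CPM in WT 1, 2 and 3. Knockout 1 was the highest of all 6 libraries and the other knockout libraries were the lowest. On the log2 scale the difference was -0.33 ± 0.32 (SE; edgeR adjusted p = 0.890), and it moved to -0.72 without knockout 1 and to -0.12 without knockout 2.

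*Vim* (chr2:13573927-13582826, plus strand), the intermediate filament gene of mesenchymal cells, had a fitted fold change above 0. It was at 2457, 2856 and 2738 CPM in knockout 1, 2 and 3 and at 2250, 2632 and 2676 CPM in WT 1, 2 and 3. Here the libraries that were high for most other markers, knockout 1 and WT 1, were the lowest of their groups. Knockout over WT, the log2 fold change was 0.091 ± 0.12 (SE), and its 95% interval from -0.19 to 0.37 was the narrowest of the 10. The edgeR adjusted p was 0.921. The value was 0.016 without WT 1, 0.043 without knockout 2 and 0.15 without knockout 1.

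Among the secreted proteins, fibronectin was the message with the highest CPM of the 10. *Fn1* (chr1:71585520-71653200, minus strand) encodes the adhesive glycoprotein that integrins bind in provisional matrix. It was at 15240.1, 6855 and 8650 CPM in knockout 1, 2 and 3 and at 12383, 7459 and 10779.7 CPM in WT 1, 2 and 3. The means, 10248 ± 4415 CPM in the knockout and 10207 ± 2512 CPM in WT (SD, n = 3 each), were nearly equal, and knockout 1 held the highest value and knockout 2 the lowest. Fitted over all libraries, the log2 fold change was 0.0058 ± 0.33 (SE; 95% interval -0.79 to 0.80; edgeR adjusted p = 0.998). Its sign turned with upper-quartile scaling (-0.0074), without knockout 1 (-0.40) and without WT 2 (-0.18). The WT 3 count of this gene was deposited with 3 significant digits.

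*Thbs1* (chr2:118111876-118127133, plus strand) encodes thrombospondin 1, a matricellular protein that binds Cd47 and can activate latent TGF-beta. It was at 1434, 438 and 709 CPM in knockout 1, 2 and 3 and at 1856, 342 and 882 CPM in WT 1, 2 and 3. The highest and the lowest library were both WT, WT 1 and WT 2, which differed 5.43-fold. The knockout libraries differed 3.27-fold, while the group means, 861 ± 515 CPM in the knockout and 1027 ± 767 CPM in WT, differed by less than either. Its fitted log2 fold change was -0.25 ± 0.68 (SE; edgeR adjusted p = 0.963). It was 0.49 without WT 1, 0.061 without knockout 2 and -0.85 without knockout 1.

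*Mgp* (chr6:136872435-136875823, minus strand) encodes matrix Gla protein, an inhibitor of calcification that is abundant in contractile as well as modulated smooth muscle. It was at 4158, 2049 and 2529 CPM in knockout 1, 2 and 3 and at 4381, 2301 and 3532 CPM in WT 1, 2 and 3. Each group had its high library, numbered 1 in both, and its low library, numbered 2 in both. The log2 fold change was -0.23 ± 0.33 (SE; edgeR adjusted p = 0.934), -0.0019 without WT 1 and -0.58 without knockout 1.

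*Prg4* (chr1:150449412-150466165, minus strand) encodes lubricin, the lubricating proteoglycan of joints, which also binds Cd44. It was at 330.4, 74.7 and 55.1 CPM in knockout 1, 2 and 3 and at 159, 76.4 and 194 CPM in WT 1, 2 and 3. Knockout 1 held 5.996 times the level of knockout 3, and without it the remaining knockout libraries lay below all WT libraries. The fitted log2 fold change was 0.097 ± 0.74 (SE; 95% interval -1.69 to 1.89; edgeR adjusted p = 0.989) and turned to -1.15 without knockout 1 and to -0.21 without WT 2. The mean of log2(CPM + 0.5) had the opposite sign to the fit, at 6.80 in the knockout and 7.06 in WT. *Prg4* overlaps *Tpr* on the opposite strand, which averaged 78.8 CPM, and since no source used here states whether counting used strand, reads of the overlap could belong to either.

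Chondrocyte markers, which share tissue with lubricin, were also uneven. The summed CPM of the 5 chondrocyte markers in the table was 1475, 112 and 29.5 in knockout 1, 2 and 3 and 143, 401 and 398 in WT 1, 2 and 3. Knockout 1 was thus highest and knockout 3 lowest in this sum, as for *Prg4*, whereas WT 2, the lowest WT library for *Prg4*, stood beside WT 3 at the top of WT in the sum. Most of the knockout 1 sum was the cartilage collagen gene *Col2a1*, at 1217, 30.5 and 3.43 CPM in knockout 1, 2 and 3 and at 101.5, 266 and 124 CPM in WT 1, 2 and 3. *Acan* was at 115, 49.4 and 25.9 CPM in the knockout and at 31.8, 62.4 and 59.9 CPM in WT. The list was not uniform, since *Chad* was highest in WT 3, at 213.6 CPM, against 136 CPM in knockout 1. The part of these cells in the *Prg4* level was not tested.

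*Vcan* (chr13:89655312-89742509, minus strand) encodes versican, a large proteoglycan that binds hyaluronan and accumulates in early lesions. It was at 125, 136 and 112 CPM in knockout 1, 2 and 3 and at 186.7, 109 and 127 CPM in WT 1, 2 and 3. WT 1 was the highest of all libraries and WT 2 the lowest, with the knockout libraries between them. This gave a log2 fold change of -0.18 ± 0.20 (SE; edgeR adjusted p = 0.908), and it was 0.076 without WT 1. An antisense gene on the opposite strand, *Gm4117*, averaged 15.3 CPM, with the same uncertainty of strand as for *Prg4*.

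**Figure D2:**
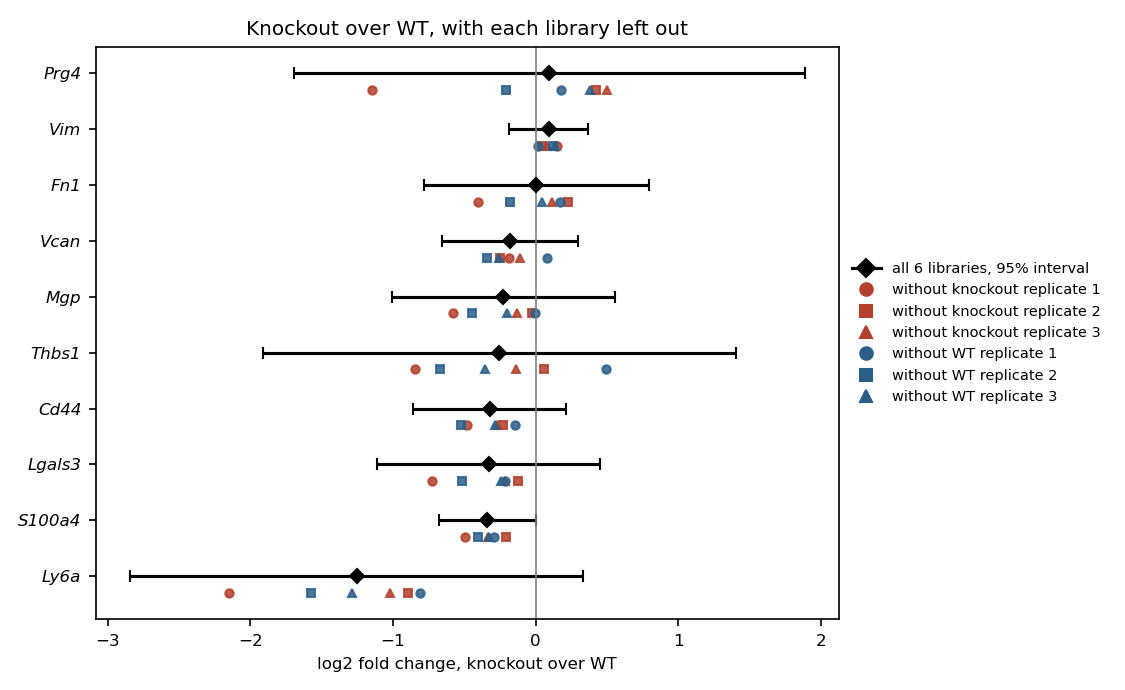
Log2 fold change, knockout over WT, of each marker with its 95% interval from the edgeR fit of all 6 libraries (black diamonds) and, below each, the values with 1 library left out (red for a knockout library, blue for a WT library). All intervals except that of S100a4 include 0, and leaving out knockout 1 moves Ly6a to -2.15 and Prg4 to -1.15.

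Set per length of their exons, the 10 messages spanned a wide range of levels. As CPM per kilobase of merged GENCODE exons, *Mgp* was highest at 2453 ± 932 in the knockout and 2868 ± 881 in WT (SD, n = 3 each). *Fn1* followed at 877 ± 378 in the knockout and 874 ± 215 in WT, and *Vim* at 566 ± 43.2 in the knockout and 531 ± 49.4 in WT. *Mgp* stood above *Fn1* in every library, whereas *Fn1* was below *Vim* in knockout 2. Next came *Thbs1* at 142 ± 84.8 in the knockout and 169 ± 126 in WT, *S100a4* at 132 ± 25.4 in the knockout and 167 ± 12.98 in WT, and *Ly6a* at 68.9 ± 55.4 in the knockout and 164 ± 84.5 in WT. These genes did not separate from each other in WT beyond their spread. *Lgals3* was at 66.4 ± 27.7 in the knockout and 83.4 ± 19.6 in WT, and *Prg4* at 35.8 ± 35.9 in the knockout and 33.5 ± 14.1 in WT. *Lgals3* was above *Prg4* in every library but also above *Ly6a* in knockout 2 and 3, so that *Ly6a* and *Lgals3* were not in a fixed order. *Cd44* was at 16.4 ± 2.96 in the knockout and 20.6 ± 5.55 in WT, above *Prg4* in knockout 3, and *Vcan* was the lowest in every library, at 8.59 ± 0.821 in the knockout and 9.73 ± 2.82 in WT. *Cd44* and *Vcan* still stood above 84.3% and 71.8% of all tested genes. The merged exons of *Fn1*, *Cd44* and *Vcan* include alternatively spliced ones, so their levels per length are underestimates for the shorter isoforms.

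The markers varied between libraries of the same group more than most genes did. The within-group SD of log2(CPM + 0.5) was above the median of all tested genes (0.148) in 9 of 10 markers, and the exception was *Vim* at 0.126. *Prg4* (1.09), *Thbs1* (1.06) and *Ly6a* (0.966) each exceeded at least 99.2% of tested genes in this SD. *Mgp* at 0.499, *Fn1* at 0.497 and *Lgals3* at 0.479 exceeded at least 93.7% of them. *Cd44* at 0.343 exceeded 86.8% of tested genes, *Vcan* at 0.299 exceeded 83.0% and *S100a4* at 0.212 exceeded 68.4%.

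The unevenness followed the same libraries in most markers. Knockout 1 was the highest knockout library for 8 of 10 markers, against 36.7% of all tested genes, and WT 2 was the lowest WT library for 9 of 10, against 34.7%. Both held for 8 of 10 markers and for 19.4% of all genes. Knockout 2 was the lowest of all 6 libraries for 6 markers (20.6% of all genes) and WT 1 the highest for 6 (22.7%). These patterns were chosen after the values were seen, and the markers are not independent of each other. The mean centred log2(CPM + 0.5) of the 10 markers was 0.45, -0.55 and -0.37 in knockout 1, 2 and 3 and 0.54, -0.35 and 0.28 in WT 1, 2 and 3. The libraries of each group therefore stood on both sides of the mean, and WT 2 stood beside knockout 3.

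Markers of other cells moved with these values to different degrees. The 9 tested adventitial fibroblast markers had mean centred values of 0.46, -0.38 and -0.23 in knockout 1, 2 and 3 and of 0.69, -0.68 and 0.13 in WT 1, 2 and 3, so that the libraries fell on the same side of the mean as for the 10 modulated genes. Their summed level was 231 to 435 CPM in the knockout and 219 to 530 CPM in WT, with 7 of 9 fitted fold changes below 0, and *Dpp4*, the tenth, was under 1 CPM in every library. Of the 11 macrophage markers 8 were tested, 7 of which had a fold change above 0, and the sum of the 11 was 6.77 to 32.1 CPM in the knockout and 7.81 to 31.5 CPM in WT. Their centred means, 0.97, 0.33 and -0.72 in the knockout and 0.79, -0.81 and -0.57 in WT, put knockout 2 high where the modulated genes were low, and WT 3 low where they were high. All 7 lymphocyte markers stayed under 1 CPM everywhere. Mesothelial markers summed to 0.348 to 1.88 CPM in the knockout and 0.422 to 3.19 CPM in WT. The sums of 3 further lists were each carried by a single gene. The adipocyte sum, 37.4 to 53.2 CPM in the knockout and 37.5 to 50.1 CPM in WT, was nearly all *Fabp4*, beside which *Ucp1* reached at most 0.0687 CPM in a knockout library and 0.0736 CPM in a WT library. The Schwann cell sum, 214 to 239 CPM in the knockout and 242 to 257 CPM in WT, was nearly all *Pmp22*. The heart muscle sum, 9.43 to 30.3 CPM in the knockout and 14.9 to 24.01 CPM in WT, was mostly *Tnnt2*, at 8.45 to 28.9 CPM in the knockout and 14.1 to 23.0 CPM in WT. The 7 endothelial markers summed to 60.8 to 70.2 CPM in the knockout and 61.2 to 67.6 CPM in WT, most of it *Pecam1*. The 10 contractile markers had centred means of -0.12, 0.25 and 0.16 in the knockout and -0.28, 0.11 and -0.11 in WT, the opposite side of the mean to the modulated genes in each library. Of these 10, 0 had a fitted fold change below 0, against 50.6% of all genes, and the median was 0.17. The knockout libraries lay entirely above the WT libraries for 0 of them (6.48% of all genes). How far this turned on single libraries was not examined for the contractile markers. At an unadjusted edgeR p under 0.05, 1 of them was higher, against 658 of all genes (3.95%). The part of other cells in the modulated gene levels was not tested, and in these bulk samples fewer cells of a type and less RNA per cell cannot be told apart.

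**Figure D3:**
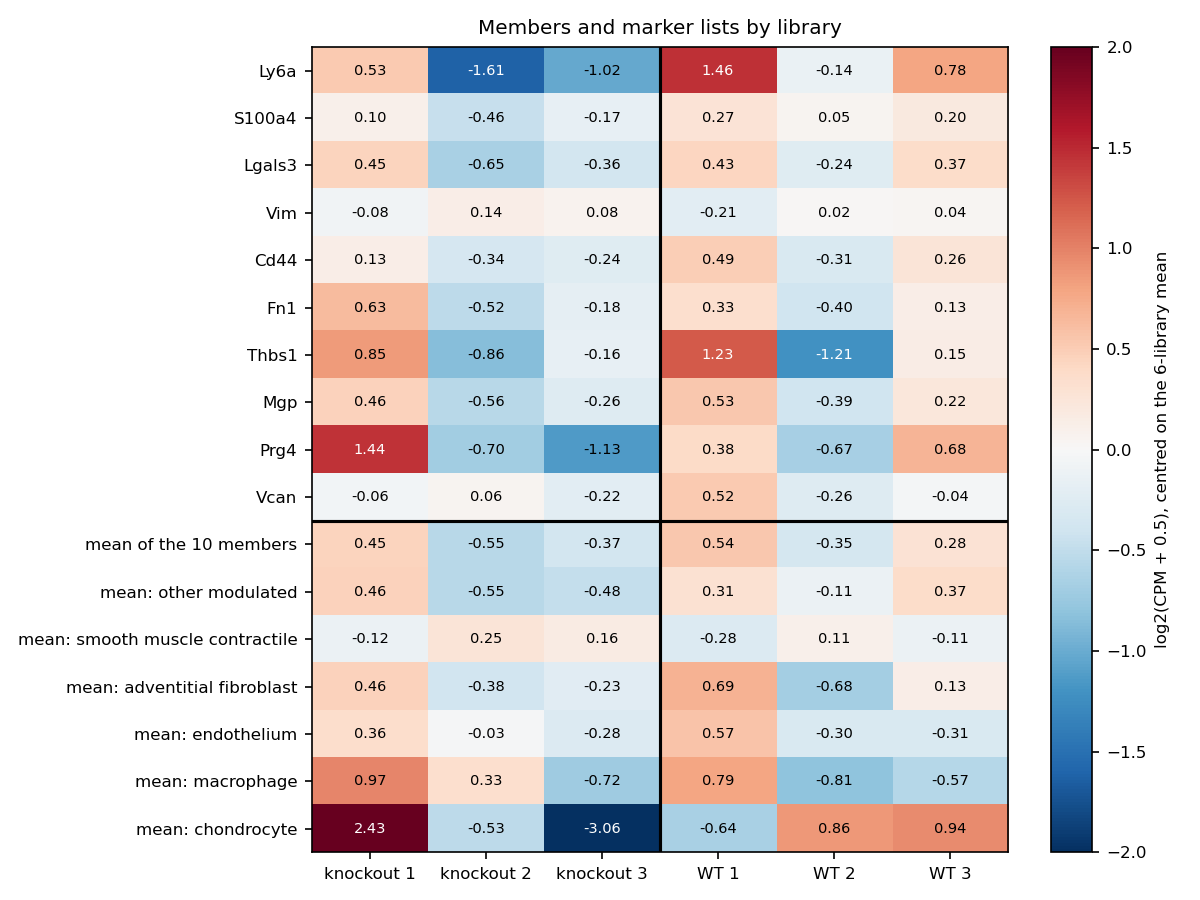
Centred log2(CPM + 0.5) of each marker (upper block) and the mean of each gene list (lower block) in the 6 libraries, knockout on the left and WT on the right; each cell prints its value, and the colour scale ends at -2 and 2. Knockout 1, WT 1 and WT 3 are above 0 in the mean of the 10 markers (0.45, 0.54 and 0.28), and knockout 2, knockout 3 and WT 2 below 0 (-0.55, -0.37 and -0.35).

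Other genes tied to the modulated state had a like median to the 10 markers. Of 24 such genes, all tested, 0 were called in either direction over all genes. A fold change below 0 was found in 19 of them, against 50.6% of all genes, and the median was -0.22. At an unadjusted edgeR p under 0.05, *Myh10* was higher and *Ly6c1* lower, against 3.95% of all genes higher and 2.01% lower. In 1 of the 24 the knockout libraries lay above all WT libraries (6.48% of all genes), and in 0 below them (5.6%). *Myh10*, the nonmuscle myosin of embryonic and dedifferentiated smooth muscle, was at 624, 671 and 606 CPM in knockout 1, 2 and 3 and at 434, 576 and 460 CPM in WT 1, 2 and 3, so the groups did not overlap. Its log2 fold change was 0.37 ± 0.12 (SE; edgeR adjusted p = 0.793), opposite in sign to most of the list. *Ly6c1*, a neighbour and close relative of *Ly6a*, was at 56.6, 14.6 and 17.2 CPM in the knockout and at 110.6, 46.7 and 86.4 CPM in WT, with knockout 1 again inside the WT range (-1.47 ± 0.60; adjusted p = 0.833). Reads of *Ly6a* and *Ly6c1* can be alike, and estimated counts can divide shared reads between such genes, which was not tested here. *Klf4*, a transcription factor that drives modulation, had a log2 fold change of 0.24 ± 0.21. The proteoglycan gene *Lum* had -0.92 ± 0.62 and the tropomyosin gene *Tpm4* -0.32 ± 0.23 (SE). Adjusted p-values of these 3 lay between 0.865 and 0.883. *Klf4* was at 0.074 without WT 1 and 0.51 without WT 3, and *Tpm4* at -0.11 without WT 1, -0.16 without knockout 2 and -0.498 without WT 2. Without knockout 1 *Lum* was at -1.80 and *Ly6c1* at -2.36, and without knockout 2 *Lum* was at -0.56.

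Receptors, binding partners and processing enzymes of the 10 proteins lay closer to all genes. Of 29 tested, 0 were called over all genes, 17 had a fold change below 0 (50.6% of all genes) and the median was -0.068. In 1 of the 29 the knockout libraries lay below all WT libraries (5.6% of all genes), and in 1 above them (6.48%). *Has2*, a synthase of hyaluronan, the ligand of Cd44 and versican, was at 1.42, 0.526 and 0.306 CPM in knockout 1, 2 and 3 and at 2.004, 1.89 and 2.05 CPM in WT 1, 2 and 3. All knockout libraries lay below all WT libraries, at a low level. Its fitted difference was -1.44 ± 0.53 in log2 units (SE), at an unadjusted edgeR p of 0.0297 and an adjusted p of 0.830. *Cd47*, a receptor of thrombospondin 1, had a log2 fold change of -0.24 ± 0.13, and *Itga4*, a subunit of a fibronectin receptor, -0.33 ± 0.25. On the other side, *Plec*, which links vimentin filaments to the cell's other structures, had 0.15 ± 0.077, with all knockout libraries above all WT libraries. *Itga8*, an integrin subunit that binds fibronectin and is typical of contractile smooth muscle, had 0.23 ± 0.14, and *Adamts1*, a protease that cuts versican, 0.19 ± 0.15 (SE). The adjusted p of these 5 genes was between 0.859 and 0.872. Single libraries moved several of these values: without WT 1 *Itga4* was at -0.0033, *Cd47* at -0.11 and *Itga8* at 0.15, without knockout 2 *Adamts1* was at 0.023, and without knockout 1 *Plec* was at 0.086 and *Has2* at -2.28.

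Relatives of the 10 by protein family were mostly below 0 as well. *Ly6c1* belongs both to this list and to that of other modulated genes, so these lists are not separate. Of 29 genes 23 were tested, 0 were called over all genes, 17 had a fold change below 0 (50.6% of all genes) and the median was -0.15. The knockout libraries lay below all WT libraries for 4 of the 23 (5.6% of all genes) and above them for 0 (6.48% of all genes). *S100a11*, encoded in the same gene cluster as *S100a4*, was at 162.5, 163.1 and 157.5 CPM in knockout 1, 2 and 3 and at 202.4, 176 and 197 CPM in WT 1, 2 and 3. Unlike *S100a4*, its groups did not overlap, and the fitted fold change was -0.25 ± 0.073 in log2 units (SE), at an unadjusted edgeR p of 0.0111 and an adjusted p of 0.780. *S100a16* had -0.15 ± 0.062 (adjusted p = 0.833), again with no overlap of the groups. On the other side, *Thbs3*, of the thrombospondins, had a log2 fold change of 0.055 ± 0.080, the intermediate filament gene *Nes* 0.058 ± 0.10 and *Acan*, a relative of versican, 0.30 ± 0.56 (SE). All 3 turned sign when single libraries were left out.

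**Figure D4:**
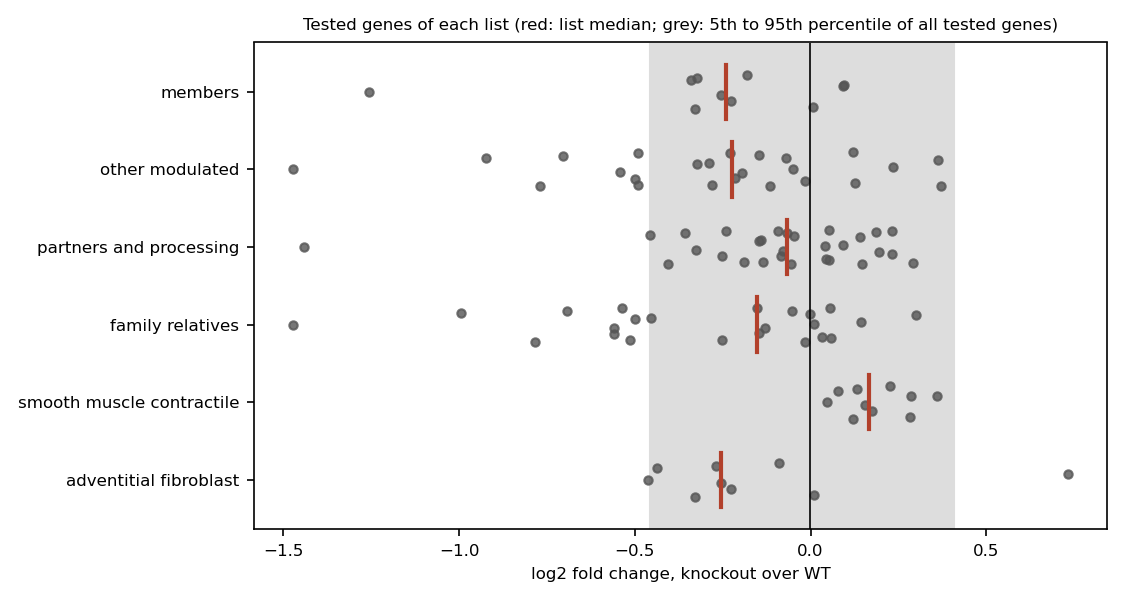
Log2 fold change, knockout over WT, of each tested gene by list, with the list median as a red line; the black line is the median of all tested genes and the grey band their 5th to 95th percentile (-0.46 to 0.41). Ly6a at -1.26 is the 1 marker of the 10 outside the band, and the medians are -0.24 for the markers, -0.22 for other modulated genes and -0.068 for partners and processing enzymes.

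Promoter sequences show what surrounds the start sites of the markers. RefSeq promoters (GRCm38.p6, 250 bases before to 50 after the start) were found for 5 of the 10 markers, *Vim*, *Cd44*, *S100a4*, *Vcan* and *Lgals3*. Motifs were searched on both strands. The AP-1 site (TGACTCA or TGAGTCA) and the CArG box, the element of contractile genes, were in 0 of the 5 windows, against 5.20% and 1.63% of all 32851 promoters of this length. The TATA box (TATAAA) was in 2 of 5, *S100a4* and *Vim*, against 13.6% of all promoters, and the GC box (GGGCGG) in the other 3, against 35.7%. With only 5 windows, these counts do not tell whether any of the motifs is rarer or more common than in other promoters. Of the 3 promoters below, the first and second belong to the intracellular markers that share a TATA box and had fitted fold changes of opposite sign, and the third to the surface receptor with a GC box. Capitals mark the TATA or GC box.
S100a4, chr3:90603520-90603819, plus strand: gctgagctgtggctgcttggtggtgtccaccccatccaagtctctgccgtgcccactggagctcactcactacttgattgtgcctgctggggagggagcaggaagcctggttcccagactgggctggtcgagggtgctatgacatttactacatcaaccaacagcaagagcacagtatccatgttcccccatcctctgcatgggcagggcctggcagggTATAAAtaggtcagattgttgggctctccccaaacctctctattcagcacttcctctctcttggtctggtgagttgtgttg
Vim, chr2:13574061-13574360, plus strand: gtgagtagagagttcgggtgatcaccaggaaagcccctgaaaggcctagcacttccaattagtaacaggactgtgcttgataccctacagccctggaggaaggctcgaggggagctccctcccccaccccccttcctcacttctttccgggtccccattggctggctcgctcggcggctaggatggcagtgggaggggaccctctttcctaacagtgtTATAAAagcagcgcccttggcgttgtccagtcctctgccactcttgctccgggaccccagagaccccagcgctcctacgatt
Cd44, chr2:102901616-102901915, minus strand: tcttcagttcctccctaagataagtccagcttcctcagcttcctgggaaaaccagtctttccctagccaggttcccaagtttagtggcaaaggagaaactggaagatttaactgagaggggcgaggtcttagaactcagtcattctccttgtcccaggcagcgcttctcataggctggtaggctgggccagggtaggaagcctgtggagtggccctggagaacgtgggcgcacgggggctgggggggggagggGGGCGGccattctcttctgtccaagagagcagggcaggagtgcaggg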

How the data were processed

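Messenger RNA was measured in 3 knockout and 3 WT samples. Per the labels' protocols, aortic tissue was frozen and total RNA was sequenced. A single table of estimated counts, 1 row a gene and not normalized, was deposited by the authors. The submitters' processing notes list mm10, STAR 2.6 and DESeq2 without saying how each served. Which counter was run, and whether it used strand, is stated in no source used here. Columns were matched by sample code, with 0 unmatched. Counts were rounded, filtered with filterByExpr (16654 of 22956 genes), TMM-scaled and compared by the robust quasi-likelihood test of edgeR 4.0.16 (R 4.3.3), a two-sided test whose p-values were adjusted over all genes by Benjamini-Hochberg. Intervals are 95%. Library totals differed up to 4.09-fold, and the median SE of a log2 fold change was 0.136. Between replicates, counts varied more than sampling allows (a chi-square of 27.6 to 98.6 per gene on average), so all 6 were kept as separate libraries.

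The 10 markers and all lists were chosen with earlier results of these data known. Beside the markers, up to 3 genes per list and direction with the smallest p and at least 1 CPM are named, with defining markers, and 1 gene that this rule takes is not reported here; *Dpp4*, *Tpr*, *Gm4117*, *Fabp4*, *Ucp1*, *Pmp22*, *Tnnt2*, *Lyz2*, *Col2a1* and *Chad* were named after their values were seen. Of the 6 adipocyte markers 4 were not analysed here. The mesothelial and chondrocyte sums cover 5 of 6 markers each, and the heart muscle sum 3 of 5. Alternatives were DESeq2 size factors, upper-quartile scaling, no filter, 1 CPM in 3 samples, DESeq2 1.42.0, limma-voom (limma 3.58.1) with sample weights, a replicate block, leaving out each library, thinning to the smallest library and an adjusted p under 0.1. Tested on simulated data of 16654 genes with the fitted dispersions, the knockout against WT test found 29.9% of 67 simulated 1.5-fold changes. It found 62.7% of 67 at 2-fold and 80.3% of 66 at 4-fold, and made 10 false calls. The changed genes were drawn at random from all tested genes, whereas 9 of 10 markers varied more than the median gene. These shares therefore do not give the recovery for the markers, which was not simulated separately. Exons and 3′ UTRs came from GENCODE M21, and 15469 tested genes matched by position, 1140 by symbol and 45 did not match. Figures used matplotlib 3.10.9 in Python 3.11.15.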

Additional observations from a re-analysis of the deposited data

How the results depend on the processing

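No marker of the 10 was called under any of the alternatives. The count of genes called over the whole table, 0 in each direction, became 63 higher and 12 lower with DESeq2's Wald test, 1 lower with the replicate block and 1 lower without knockout 1, and leaving out each library gave 0 to 0 higher and 0 to 1 lower. Leaving out single libraries gave 5 to 9 markers with a fold change below 0 and a median from -0.54 to 0.0069. The adjusted p of *Ly6a*, 0.859 with all libraries, ranged from 0.122 with the replicate block to 1.00, and that of *S100a4* from 0.155, also with the block, to 1.00. Under the block 9 of 10 markers were below 0, against 50.4% of all genes, with a median of -0.24. At an unadjusted edgeR p under 0.05, 4 markers were then lower. Of all 16654 genes, 1189 were higher and 918 lower at this threshold under the block. The labels do not say whether the replicate numbers pair the samples. Deviations from the group means of same-numbered libraries correlated at 0.38, 0.45 and -0.024 for numbers 1, 2 and 3. Libraries 1 and 2 of each group correlated best with their own number, and library 3 did not. Deviations within a group of 3 are not independent of each other, so these correlations cannot decide whether the samples are paired.

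The log2 fold change of *Fn1* changed sign with upper-quartile scaling (-0.0074), limma-voom with sample weights (-0.10), the replicate block (-0.047), without knockout 1 (-0.40) and without WT 2 (-0.18). *Prg4* did so with limma-voom (-0.58), the block (-0.25), without knockout 1 (-1.15) and without WT 2 (-0.21), *Thbs1* without knockout 2 (0.061) and WT 1 (0.49), and *Vcan* without WT 1 (0.076). *Acan* turned with limma-voom (-0.34) and without knockout 1 (-0.46), *Nes* without knockout 3 (-0.0016) and WT 3 (-0.031), and *Thbs3* without WT 1 (-0.0091). With single libraries left out the far ends were 0.23 for *Fn1*, -0.85 for *Thbs1*, 0.50 for *Prg4*, 0.13 for *Thbs3*, 0.12 for *Nes* and 0.68 for *Acan*, and -0.34 for *Vcan*. The cause was not tested. Thinning every library to the smallest total left the count at 7 of 10 and the median at -0.24.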
